A study of Sus scrofa with 36 samples.

Results

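The genes of catecholamine synthesis, storage, reuptake and breakdown were examined in the adrenal glands of growing pigs. They were found by gene name or RefSeq transcript on a porcine Agilent array. Of the 9 listed genes (TH, DDC, DBH, PNMT, SLC18A1, SLC18A2, SLC6A2, MAOA and GCH1), 6 had a probe, with 12 probes in all. The table of log2 values held 5 of these genes (DDC, DBH, PNMT, SLC18A1 and MAOA) with 11 probes, among 45348 probes and 10040 named genes. No probe was matched to TH, GCH1 or SLC18A2, which were not analysed here.

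RNA from 36 castrated male pigs was labelled with Cy3 and hybridised with 1 array per pig. There were 6 groups of 6 pigs: Large White, Creole and F1 (Large White x Creole) pigs, each either thermoneutral (TN) or heat stressed (HS). The TN condition was 24 °C. For the HS condition the protocol names 32 °C, held for 4 or 5 days, and the labels of the arrays name 30 °C. TN pigs were slaughtered before the temperature rose and HS pigs after it, so temperature and day of slaughter cannot be told apart. Pigs were raised as sets of littermates, which the labels do not identify, so that p-values treat related pigs as independent.

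Chromaffin cells of the adrenal medulla make adrenaline from tyrosine. Tyrosine hydroxylase (TH), which needs the cofactor that GCH1 starts to make, forms DOPA, and DDC turns DOPA into dopamine. Vesicular monoamine transporters (SLC18A1 and SLC18A2) load dopamine into granules, where DBH makes noradrenaline, and PNMT, an enzyme induced by glucocorticoids from the surrounding cortex, methylates it to adrenaline. SLC6A2 takes noradrenaline back into cells, and MAOA breaks down amines at the mitochondrial outer membrane. A piece of whole adrenal gland holds medulla and cortex, so fewer chromaffin cells and less RNA per cell cannot be told apart.

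On Sscrofa11.1, RefSeq places DDC at chr9:136496364-136571220, DBH at chr1:273204407-273225562 and PNMT at chr12:22648396-22651520. It places SLC18A1 at chr14:4243553-4279341, SLC6A2 at chr6:29931650-29981636 and MAOA at chrX:38930452-39006220. The probes are 60 bases long. The sequences shown are those of PNMT and of MAOA probes 2 to 5, the genes that differed between breeds, and one probe each of DBH, SLC18A1 and SLC6A2. MAOA probe 1, the brightest, which gives the MAOA level and main difference below, is not printed. Capitals mark the 56 bases that a pair of MAOA probes share, so that these probes are not independent readings. Their orders below are those used in the plots.
PNMT probes 1 and 2: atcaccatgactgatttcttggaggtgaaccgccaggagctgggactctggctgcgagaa
MAOA probe 2: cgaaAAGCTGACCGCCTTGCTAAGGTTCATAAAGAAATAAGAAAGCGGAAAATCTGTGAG
MAOA probe 3: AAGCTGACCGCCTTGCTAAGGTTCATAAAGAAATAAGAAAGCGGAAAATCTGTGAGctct
MAOA probe 4: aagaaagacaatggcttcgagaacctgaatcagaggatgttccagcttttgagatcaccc
MAOA probe 5: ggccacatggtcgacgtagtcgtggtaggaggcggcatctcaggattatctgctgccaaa
DBH probe: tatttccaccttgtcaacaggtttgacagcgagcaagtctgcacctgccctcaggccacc
SLC18A1 probe 1: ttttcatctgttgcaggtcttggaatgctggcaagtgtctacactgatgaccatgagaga
SLC6A2 probe: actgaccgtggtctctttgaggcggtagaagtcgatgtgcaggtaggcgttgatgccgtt

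Both PNMT probes are the same 60 bases under separate names, a technical repeat on each array. Their log2 values differed by -0.004 on average, with an SD of the difference of 0.036 over 36 arrays. The SD between pigs of a group was 0.31, so error between spots was small beside the spread between pigs. The SLC6A2 probe was well above background on 2 of 36 arrays, both TN, with a median raw intensity of 40.0 (range 33.0 to 49.0), and it was not in the table. Read as written, its letters hold 1 frame without a stop codon, against 3 on the complementary strand, and which strand is the gene's was not settled here. No level is given for SLC6A2. The other 11 probes were well above background on 36 of 36 arrays and saturated on 0.

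Arrays of the study correlated with each other at r between 0.982 and 0.996 over all probes. Between 42437 and 48061 spots were well above background on each TN array, and between 43586 and 47658 on each HS array. The arrays lay on 5 slides, each with as many TN as HS arrays. Markers of cortex and of medulla were well above background on 36 of 36 arrays, the former with STAR, CYP11A1 and CYP17A1 and the latter with CHGA and CHGB.

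Levels by group are given as log2 of the normalized intensity, and are compared only within a probe. For a gene with several probes the level is that of its brightest probe.

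**Figure D1:**
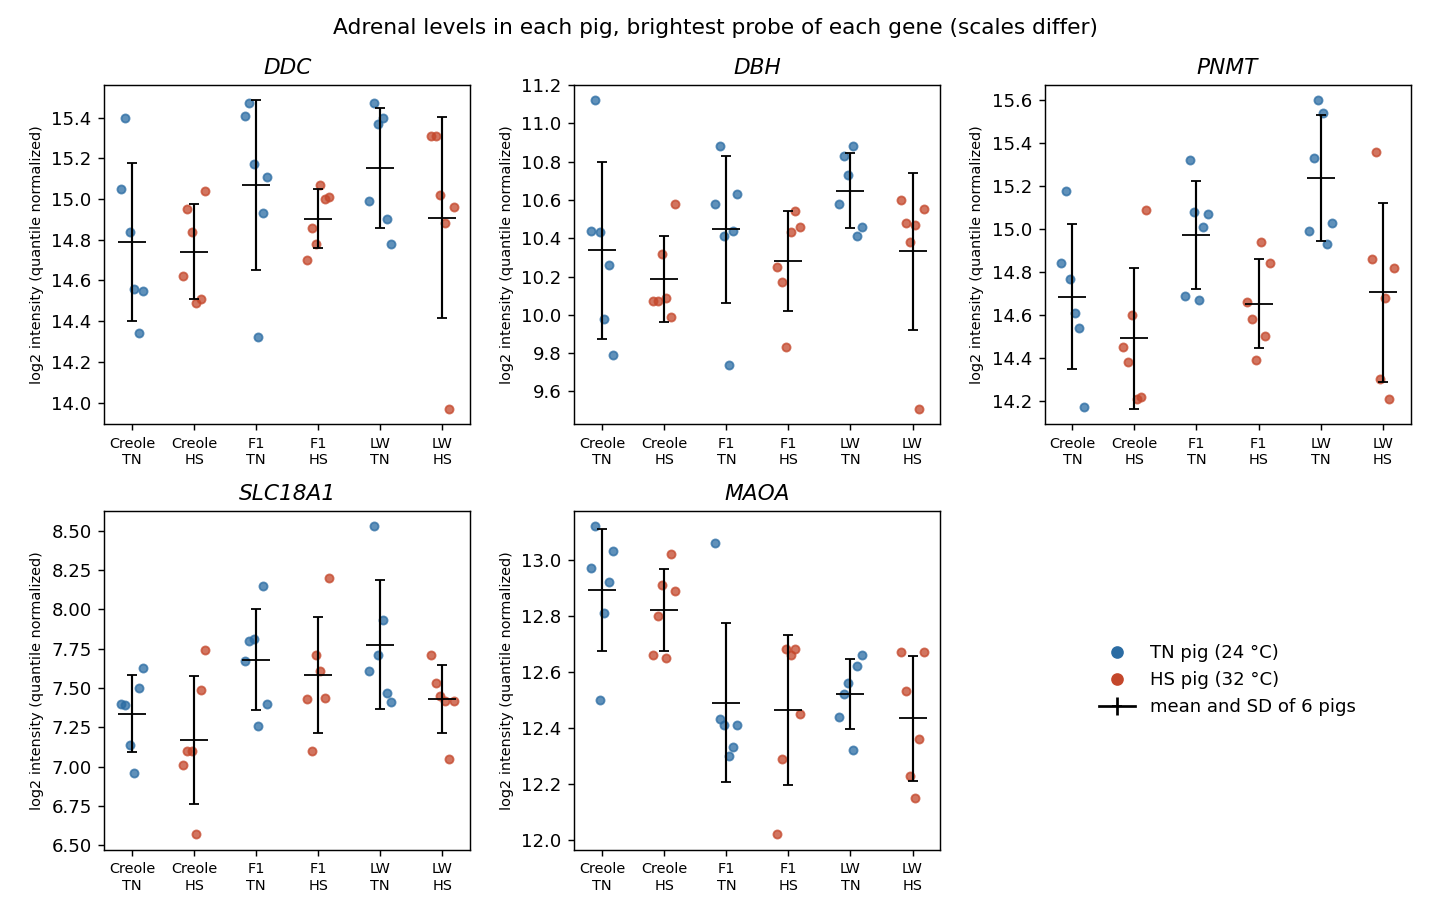
The y axes show the log2 intensity of the brightest probe of each gene, with 1 point per pig in the 6 groups (LW, Large White), and bars give the mean and SD of 6 pigs. Points of TN and HS pigs overlap in every breed for each gene, and MAOA is highest in the Creole groups.

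PNMT, which makes adrenaline, lay between 14.17 and 15.60 over 36 pigs. In Creole pigs its lowest, median and highest values were 14.17, 14.69 and 15.18 in TN and 14.21, 14.42 and 15.09 in HS. In F1 pigs they were 14.67, 15.04 and 15.32 in TN and 14.39, 14.62 and 14.94 in HS. In Large White pigs they were 14.93, 15.18 and 15.60 in TN and 14.21, 14.75 and 15.36 in HS. TN and HS ranges overlapped in each breed, while the median was lower in HS in each. Group means ran from 14.49 ± 0.33 (SD, n = 6) in Creole HS to 15.24 ± 0.29 (SD, n = 6) in Large White TN. The other means lay from 14.65 to 14.97, and neighbours in this order differed by about 1 SD or less.

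DDC, the decarboxylase, lay between 13.97 and 15.47. Its group means ran from 14.74 ± 0.23 (SD, n = 6) in Creole HS to 15.15 ± 0.30 (SD, n = 6) in Large White TN. Creole HS and Creole TN (14.79 ± 0.39) were the lowest, F1 HS, Large White HS and F1 TN followed at 14.90, 14.91 and 15.07, and no neighbours in this order differed by more than their SD. One Large White HS pig stood at 13.97, with the other 5 of its group between 14.88 and 15.31.

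DBH, the enzyme that forms noradrenaline inside granules, had group means from 10.19 ± 0.22 (SD, n = 6) in Creole HS to 10.65 ± 0.19 (SD, n = 6) in Large White TN. The same Large White HS pig was lowest of all 36, at 9.51, against 10.38 to 10.60 in the rest of its group. The highest DBH value, 11.12, was from a Creole TN pig. The SD within groups ran from 0.19 to 0.46, and the 6 groups overlapped.

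SLC18A1, the vesicular transporter known from endocrine cells, had group means from 7.17 ± 0.41 (SD, n = 6) in Creole HS to 7.78 ± 0.41 (SD, n = 6) in Large White TN. Creole pigs as a whole had lowest, median and highest values of 6.57, 7.26 and 7.74, F1 pigs 7.10, 7.64 and 8.20, and Large White pigs 7.05, 7.50 and 8.53. The ranges of the breeds overlapped.

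MAOA, which oxidises noradrenaline and adrenaline that leave the granules, was ordered differently. Its lowest, median and highest values were 12.50, 12.90 and 13.12 in Creole pigs, 12.02, 12.42 and 13.06 in F1 pigs and 12.15, 12.52 and 12.67 in Large White pigs. Creole means (12.89 ± 0.22 in TN and 12.82 ± 0.15 in HS, SD, n = 6) were above the other 4 group means, which lay between 12.43 and 12.52 and differed by less than their SD.

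For temperature, HS and TN pigs were compared over the 3 breeds. All 5 genes had a lower mean in HS, and 0 of 11 probes passed an FDR of 0.05, a threshold that 0.911% of all probes passed (0.41% higher and 0.501% lower in HS). At an unadjusted p under 0.05, which 13.5% of all probes met, there were 2 of 11, both spots of the PNMT sequence. PNMT came nearest, with a log2 difference of -0.35 (SE 0.10, 95% interval -0.55 to -0.14), a fold of 0.786, and an adjusted p of 0.0789 from limma with Benjamini-Hochberg adjustment. Its level was below the TN mean of the same breed in 16 of 18 HS pigs (5 of 6 Creole, 6 of 6 F1 and 5 of 6 Large White). The identical spot gave -0.35 with an adjusted p of 0.0752 from limma. With the slide as a random block the adjusted p of PNMT was 0.0490 from limma, and without the arrays of slide 5 the difference was -0.44 with an adjusted p of 0.0496 from limma. Over 54 settings that adjusted p ran from 0.0280 to 0.400.

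DBH differed between HS and TN by -0.21 (95% interval -0.43 to 0.00), SLC18A1 by -0.21 (-0.42 to 0.01), DDC by -0.15 (-0.38 to 0.07) and MAOA by -0.06 (-0.20 to 0.08) on the log2 scale. Their adjusted p from limma lay between 0.383 and 0.774, and the intervals allow falls of these sizes as well as none. HS pigs below the TN mean of their breed numbered 15 of 18 for DBH, 14 for SLC18A1, 12 for DDC and 9 for MAOA. The median over the 5 genes was -0.21, and the median over all probes was 0. Without the Large White HS pig that was low in DDC (replicate 5) DDC differed by -0.09, and without the arrays of slide 2 DDC differed by -0.08 and DBH by -0.10. SLC18A1 differed by -0.13 without slide 1, and MAOA by -0.13 to -0.02 with 1 slide left out and by -0.03 without F1 TN replicate 1 or F1 HS replicate 1. As plain differences of means within slides, PNMT was lower in HS on slides 2 to 5, by between -0.52 on slide 2 and -0.08 on slide 5. On slide 1, where both TN arrays were Large White and the HS arrays were 1 Creole and 1 F1, breed and temperature cannot be told apart (-0.60). DDC, DBH, SLC18A1 and MAOA were higher in HS on slide 5, by 0.03 to 0.15, and MAOA was also higher on slide 3, by 0.07. Breeds were unequal between TN and HS on slides 2 to 5 too, so these plain differences mix breed with temperature in part.

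Of 7 chromaffin markers 0 passed by the same limma test, which 0.911% of all probes passed. At an unadjusted p under 0.05 there were 2, against 13.5% of all probes. Of the 7 markers 6 were lower in HS, and the median difference was -0.13. SCG2, a granin, differed by -0.34 with an adjusted p of 0.118 from limma. The mean level of the 7 markers ran from 12.79 to 13.98 in TN and from 12.55 to 13.76 in HS. With the mean of CHGA, CHGB, SCG2 and SCG5 in the fit, the difference of PNMT was -0.18, that of SLC18A1 -0.10, that of MAOA -0.02, that of DBH 0.00 and that of DDC 0.10, and none passed by limma. Among cortex markers, 1 of 9 passed, against 0.911% of all probes (0.501% lower in HS). This was NR5A1, the steroidogenic factor, which fell by 0.25 (adjusted p = 0.0253 from limma). With the mean of STAR, CYP11A1, CYP17A1, HSD3B1 and MC2R in the fit PNMT differed by -0.29. NR5A1 lost its call in 6 of 53 alternatives, among them each single slide left out. Its difference lay between -0.27 and -0.20 over 54 settings. Of the markers of adipocytes (4), Schwann and sustentacular cells (5), neurons (6), endothelium (4), red blood cells (3) and leukocytes (4), 0 passed between TN and HS. At an unadjusted p under 0.05 from limma there were 0, 0, 2, 0, 1 and 1, against 13.5% of all probes.

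The response was then asked for in each breed. PNMT differed by -0.20 in Creole (95% interval -0.55 to 0.16), by -0.32 in F1 (-0.67 to 0.04) and by -0.53 in Large White pigs (-0.88 to -0.18). In Large White pigs its unadjusted p was 0.0045 and its adjusted p 0.630 from limma. None of the 11 probes passed in any breed, where 0% of all probes passed in Creole and F1 pigs and 0.011% in Large White pigs (in F1 pigs up to 0.525% in an alternative, without the arrays of slide 5), and 2 probes, both PNMT in Large White pigs, had an unadjusted p under 0.05. At an unadjusted p under 0.05 from limma these shares were 4.79%, 12.3% and 6.29%. DDC, DBH, SLC18A1 and MAOA were lower in HS in each breed by their brightest probe, by between -0.35 for SLC18A1 in Large White pigs and -0.03 for MAOA in F1 pigs. By the test of interaction 0 of 11 probes passed (0 also at an unadjusted p under 0.05), as did 0% of all probes (4.22% at an unadjusted p under 0.05 from limma's F test), and the unadjusted p of PNMT was 0.398. That p does not show that the breeds respond alike.

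**Figure D2:**
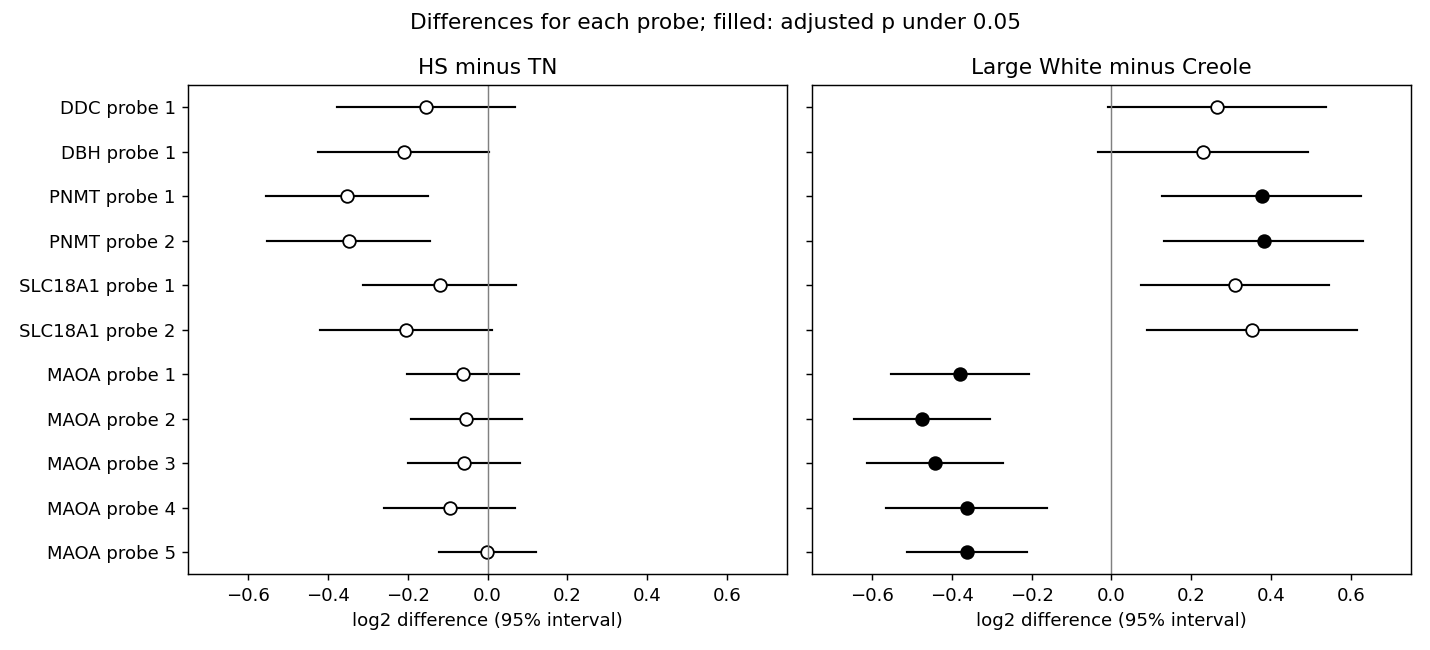
Each point is the log2 difference of 1 probe and each line its 95% interval, for HS minus TN (left) and Large White minus Creole (right), with filled points for an adjusted p under 0.05 from limma. On the left no point is filled. On the right the 2 PNMT points are filled at 0.38, and the 5 MAOA points are filled between -0.47 and -0.36.

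Between the parental breeds, PNMT was higher and MAOA lower in Large White than in Creole pigs. Of 11 probes 7 passed an FDR of 0.05, against 11.5% of all probes (5.98% higher and 5.5% lower in Large White), and these were the 5 probes of MAOA and both spots of the same PNMT sequence. The 7 probes are therefore 2 genes. Over the 3 breeds together limma's F test called 6 of 11 probes, against 10.6% of all probes (24.8% at an unadjusted p under 0.05): the 5 of MAOA and probe 1 of SLC18A1, at an adjusted p of 0.0496.

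MAOA was lower in Large White pigs by all 5 probes. The brightest, probe 1, differed by -0.38 (SE 0.085, 95% interval -0.55 to -0.21), a fold of 0.768, with an adjusted p of 0.0025 from limma. Probes 2 and 3, which overlap, differed by -0.47 and -0.44, and probes 4 and 5 by -0.36 each, with adjusted p from limma between 2.0e-04 and 0.014. All 12 Large White pigs were below the Creole mean by each of probes 1 to 4, and 11 of 12 by probe 5. By probe 2 the Large White range was 10.11 to 10.67 and the Creole range 10.60 to 11.24, and 9 of 12 Large White pigs lay below the lowest Creole pig. By probes 1, 3, 4 and 5 those below it numbered 5, 7, 5 and 7 of 12. By plain means within slides 2 to 5 MAOA was lower in Large White pigs, by between -0.41 and -0.32. On slide 1, where breed and temperature cannot be told apart, it was lower by -0.18. Shares of TN and HS pigs also differed between these breeds on slides 2 to 5. The call of probe 1 held in all 54 settings, including each pig and each slide left out, with differences between -0.50 and -0.34.

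**Figure D3:**
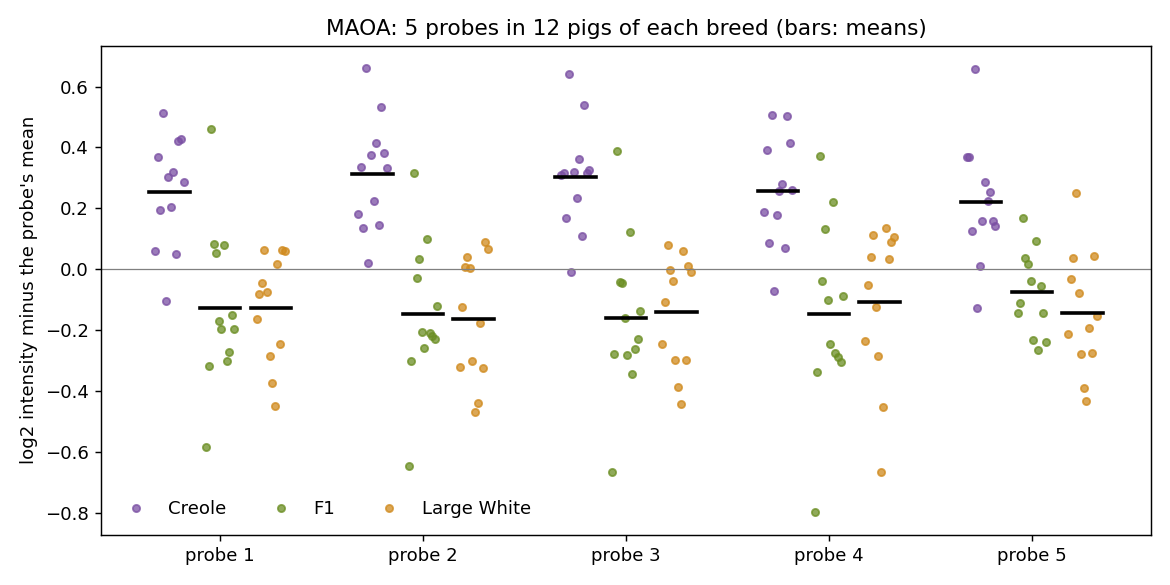
The y axis shows the log2 intensity of each MAOA probe minus the mean of that probe over 36 pigs, with 12 pigs for each breed and a bar at the breed's mean. Creole pigs lie highest on each of the 5 probes, while F1 and Large White pigs share a range.

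MAOA in F1 pigs was near the Large White level. MAOA lies on chrX and all pigs were male, so each F1 pig has its X from its dam's breed only. The labels do not name that breed. For MAOA the mean of both parents is thus not the level to be awaited without dominance, and no mode of inheritance can be read from it. The F1 and Large White means by probe 1 were 12.48 ± 0.27 and 12.48 ± 0.18 (SD, n = 12), against 12.86 ± 0.18 in Creole pigs. Against the mean of both parents, F1 pigs differed by -0.24 to -0.11 over the 5 probes, with unadjusted p from 0.0021 to 0.082 and adjusted p from 0.132 to 0.523 by limma, and 0 of 11 probes of the 5 genes passed (5 at an unadjusted p under 0.05, which 11.2% of all probes met), against 0.415% of all probes (0.203% higher and 0.212% lower in F1). One F1 TN pig, at 13.06, stood above the other 5 of its group, which lay between 12.30 and 12.43. Without it probe 1 differed by -0.24 from the mean of the parents, with an adjusted p of 0.125 from limma. SLC18A1 differed from the mean of both parents by 0.23 (probe 1) and 0.20 (probe 2), DDC by 0.09, PNMT by 0.03 and DBH by -0.01, and none passed.

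PNMT was higher in Large White than in Creole pigs by 0.38 (SE 0.12, 95% interval 0.13 to 0.63), a fold of 1.303, with an adjusted p of 0.0373 from limma. Above the Creole mean were 10 of 12 Large White pigs, and 4 were above the highest Creole pig. By plain means within slides 2 to 5, where shares of TN and HS pigs differed between these breeds, PNMT was higher in Large White pigs, by 0.23 to 0.43. On slide 1, with 2 Large White TN arrays and 1 Creole HS array, PNMT was higher by 0.71. The call was lost in 17 of 53 alternatives with the direction kept, among them processed signals scaled to their 75th percentile, on another set of probes (0.35, adjusted p = 0.0795 from limma) and the arrays of slide 1, 2, 3 or 5 left out, and with 1 of 11 single pigs left out (0.33 to 0.38). With the chromaffin markers in the fit it changed sign, as given with those markers.

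SLC18A1, DDC and DBH had higher means in Large White pigs and did not pass. SLC18A1 differed by 0.31 (95% interval 0.07 to 0.54) and 0.35 (0.09 to 0.62) by its pair of separate probes, with adjusted p of 0.0794 and 0.0746 from limma. By its brightest probe SLC18A1 passed with the slide as a fixed block (0.38, adjusted p = 0.0403) or a random block (0.37, adjusted p = 0.0438), without the arrays of slide 5 (0.53, adjusted p = 0.0054) and without Creole HS replicate 6 (0.41), all from limma. DDC differed by 0.27 (-0.01 to 0.54) and DBH by 0.23 (-0.03 to 0.49). For each of the 3 genes, 11 of 12 Large White pigs were above the Creole mean. The exception was the same pig for all 3 genes, the Large White HS pig that was low in DDC and DBH, and without it the difference of DDC was 0.36 with an adjusted p of 0.0444 and that of SLC18A1 0.39 with an adjusted p of 0.0453 from limma.

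Marker genes of several cell types differed between the breeds too, where 11.5% of all probes passed. Of 7 chromaffin markers 5 rose in Large White against Creole pigs, with a median of 0.41 over the 7. SCG2 rose by 1.03, PENK by 0.57, CHGB by 0.54, SCG5 by 0.36 and CHGA by 0.16. SYT1 differed by 0.41 (adjusted p = 0.066 from limma) and did not pass. CARTPT went the other way, by -0.84 (adjusted p = 0.360 from limma), and did not pass either. SCG5 did not pass with the cortex markers in the fit, without the arrays of slide 1, 2, 3 or 5, and with 1 of 8 single pigs left out (0.33 to 0.39). CHGA did not pass with the cortex markers in the fit (0.16) or without the arrays of slide 3 (0.17) or 5 (0.14), and PENK did not with the cortex markers (0.54, adjusted p = 0.0704 from limma) or the chromaffin markers (0.06, adjusted p = 0.885) in the fit. The mean level of the list ran from 12.79 to 13.73 in Creole, 12.90 to 13.98 in F1 and 12.55 to 13.87 in Large White pigs, and each marker was above background on 36 arrays. Of 4 adipocyte markers 3 were lower in Large White pigs. ADIPOQ fell by 1.62, FABP4 fell by 1.33 and PLIN1 fell by 0.90, with list means of 8.81 to 9.90 in Creole, 8.46 to 9.83 in F1 and 8.24 to 8.93 in Large White pigs. Of 9 cortex markers 2 were lower: HSD3B1 fell by 0.79 and STAR fell by 0.34. With the cortex markers, which include both, in the fit HSD3B1 differed by -0.41 and passed, and STAR by -0.14 (adjusted p = 0.450 from limma). STAR also did not pass with the chromaffin markers in the fit (-0.36, adjusted p = 0.0772 from limma) or without the arrays of slide 3 (-0.26, adjusted p = 0.0853). Of 6 neuron markers 1 rose, NEFM by 1.03, and of 4 endothelial markers 1 rose, KDR by 0.68. Of 5 Schwann and sustentacular, 3 red blood cell and 4 leukocyte markers 0 passed, with 1, 1 and 2 at an unadjusted p under 0.05 from limma, which 24.4% of all probes met. The part of the adipocyte, neuron and endothelial markers in the results on PNMT and MAOA was not tested.

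The chromaffin markers were put into the fit. With the mean of CHGA, CHGB, SCG2 and SCG5 as a covariate, the difference of PNMT between Large White and Creole pigs was -0.10 and that of SLC18A1 was 0.07, both without a call. That of DBH was -0.36 (adjusted p = 0.167 from limma) and that of DDC -0.45 (adjusted p = 0.0320 from limma), so that 3 of these 4 genes changed sign. Each marker of this mean itself rose in Large White pigs, from CHGA by 0.16 to SCG2 by 1.03, so the covariate varies with breed. CHGA (-0.02) and SCG5 (-0.32), parts of the mean, changed sign too. These fitted differences therefore cannot be read as levels per chromaffin cell. MAOA differed by -0.50 in the same fit and by -0.42 with the mean of the 5 cortex markers, with adjusted p of 0.0210 and 0.0233 from limma. With the cortex markers PNMT differed by 0.54 (adjusted p = 0.0429 from limma). MAOA was thus lower in Large White pigs with either marker mean in the fit.

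**Figure D4:**
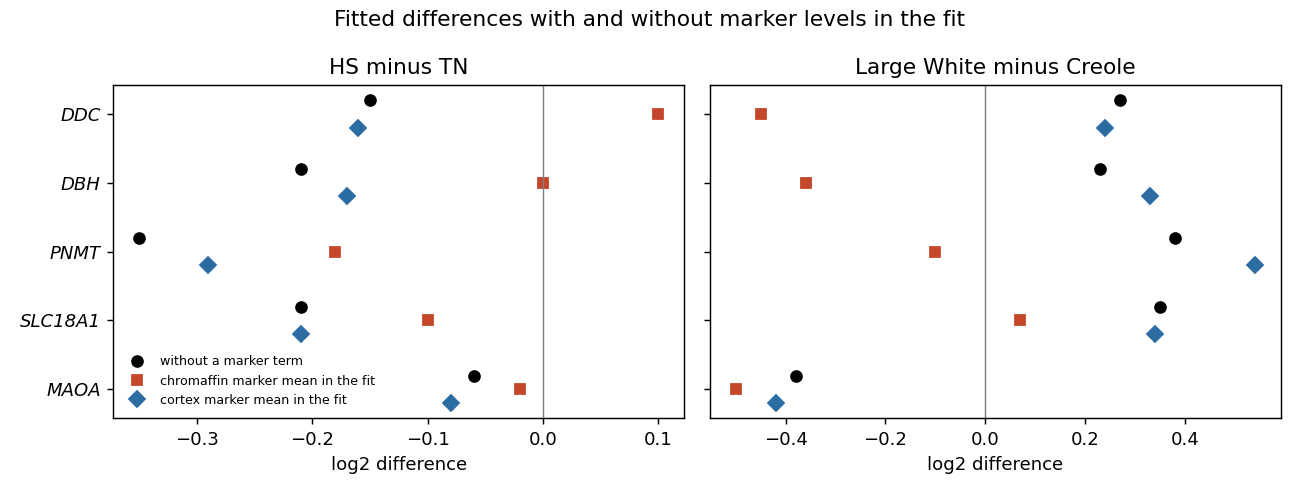
The x axes show the log2 difference of the brightest probe of each gene for HS minus TN (left) and Large White minus Creole (right), fitted without a marker term (circles), with the chromaffin marker mean (squares) or with the cortex marker mean (diamonds). On the right the squares of DDC, DBH and PNMT lie below 0, and MAOA stays between -0.50 and -0.38.

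Pig by pig, with the group means taken out, DDC, DBH and PNMT varied together, while the correlations of MAOA did not pass. Over 36 pigs, DDC and DBH correlated at r = 0.87 (rho = 0.80), DBH and PNMT at r = 0.75 (rho = 0.76) and DDC and PNMT at r = 0.72 (rho = 0.73). For these 3 of the 15 relations computed the permutation p of r and of rho was 1e-05, the smallest that 100000 permutations within groups can give, and 4e-05 after Benjamini-Hochberg adjustment. Without the 2 pigs farthest from the median of the first-named gene r was 0.78, 0.73 and 0.69. DDC and DBH gave r between 0.86 and 0.94 within the 4 slides with 8 arrays, and r of 0.88 in TN and 0.85 in HS. Within those slides r was 0.51 to 0.96 for DBH and PNMT (0.82 in TN and 0.70 in HS) and 0.64 to 0.90 for DDC and PNMT (0.74 in TN and 0.71 in HS). SLC18A1 correlated with DDC at r = 0.46 (rho = 0.47, permutation p 0.0028 and 0.0058, adjusted 0.0059 and 0.012), with 0.36 without 2 pigs and 0.42 to 0.92 within slides (0.42 in TN, 0.51 in HS). With DBH its r was 0.39 (rho = 0.42, permutation p 0.014 and 0.016, adjusted 0.026 and 0.030), with 0.26 without 2 pigs and 0.14 to 0.85 within slides (0.33 in TN, 0.45 in HS). With PNMT its r was 0.38 (rho = 0.40, permutation p 0.025 and 0.023, adjusted 0.041 and 0.038), with 0.31 without 2 pigs and 0.16 to 0.76 within slides (0.23 in TN, 0.51 in HS).

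DDC also followed the chromaffin marker mean, at r = 0.81 (rho = 0.75; permutation p of both 1e-05, adjusted 4e-05), with r = 0.72 without the 2 farthest pigs and 0.57 to 0.93 within slides (0.77 in TN, 0.87 in HS). DBH followed it at r = 0.70 (rho = 0.61, permutation p of both 3e-04, adjusted 0.001 and 9e-04), with 0.55 without 2 pigs and 0.36 to 0.85 within slides (0.62 in TN, 0.79 in HS). PNMT followed it at r = 0.58 (rho = 0.58, permutation p 9e-04 and 4e-04, adjusted 0.0023 and 0.001), with 0.59 without 2 pigs and 0.41 to 0.87 within slides (0.62 in TN, 0.54 in HS). SLC18A1 gave r = 0.33 (rho = 0.34, permutation p 0.032 and 0.052, adjusted 0.048 and 0.077), with 0.37 without 2 pigs and 0.22 to 0.50 within slides (0.25 in TN, 0.41 in HS). The covariate and these genes were measured on the same arrays.

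MAOA correlated with the marker mean at r = 0.23 (rho = 0.26; permutation p 0.26 and 0.16, adjusted 0.30 and 0.18) and with PNMT at r = 0.03 (rho = 0.10; permutation p 0.88 and 0.59, adjusted 0.88 and 0.59). Without the 2 farthest pigs these r were 0.24 and -0.03. With DDC the r of MAOA was 0.30 (rho = 0.28, permutation p of both 0.11, adjusted 0.15 and 0.14), with SLC18A1 0.25 (rho = 0.33, permutation p 0.15 and 0.057, adjusted 0.19 and 0.078) and with DBH 0.17 (rho = 0.21, permutation p 0.38 and 0.25, adjusted 0.41 and 0.27). Without the 2 farthest pigs these were 0.27, 0.30 and 0.10, and within slides they lay between -0.24 and 0.42, -0.20 and 0.59, and -0.28 and 0.27. They were 0.27, 0.07 and 0.15 in TN and 0.34, 0.43 and 0.19 in HS. For MAOA and the marker mean r was 0.08 in TN, 0.36 in HS and 0.05 to 0.66 within slides, and for PNMT and MAOA it was -0.22, 0.25 and -0.33 to 0.45. Whether the r of MAOA differs from that of the other genes was not tested.

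**Figure D5:**
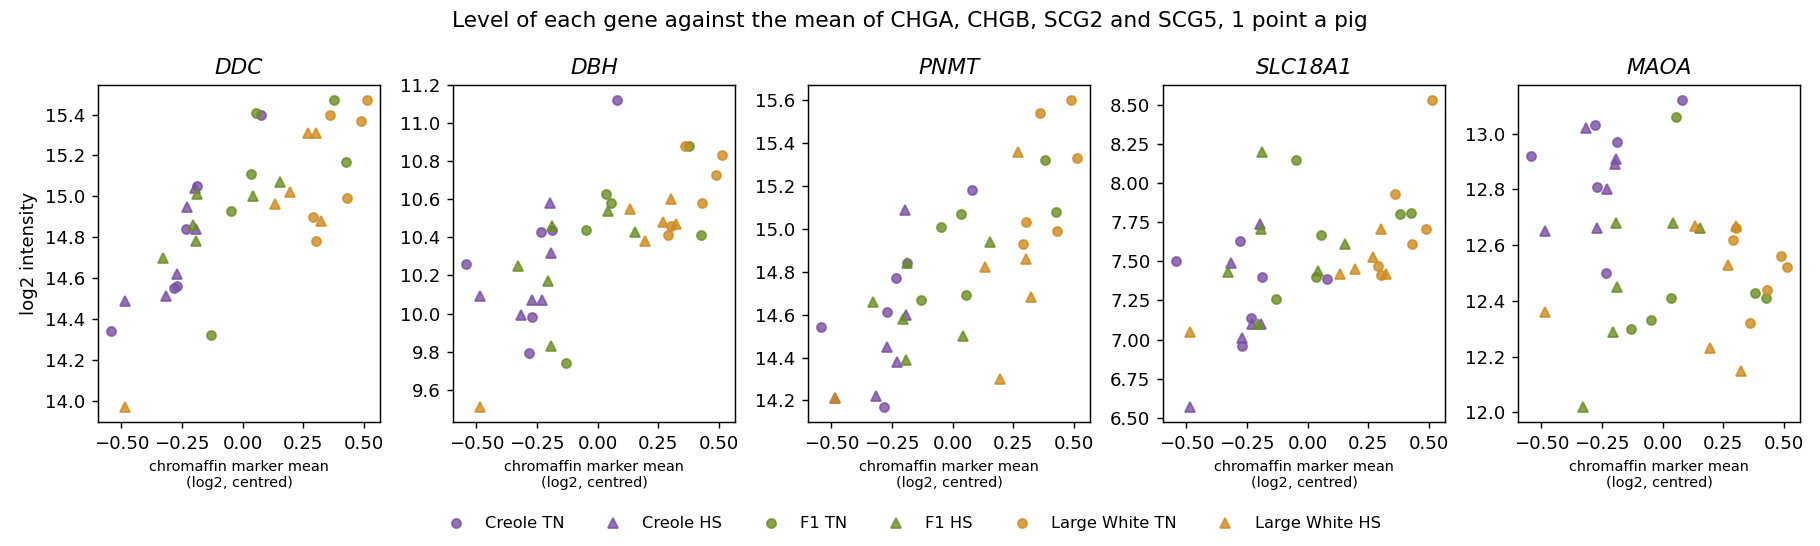
Each point is 1 pig, with the centred mean log2 level of CHGA, CHGB, SCG2 and SCG5 on the x axis and the log2 intensity of a gene on the y axis, coloured by breed with circles for TN and triangles for HS. DDC, DBH and PNMT rise with the marker mean, and MAOA correlated with it at r = 0.23 with group means taken out.

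Among 10015 other named genes, those most like each member over the 36 pigs, with group means taken out, were listed. For DDC they were TFAP2B (r = 0.87), PTGER3 (0.87) and SYBU (0.86), and for DBH they were RIIAD1 (0.80), SH3GL3 (0.80) and SYBU (0.79). For PNMT they were PCOLCE2 (0.70), APLP1 (0.66) and ACYP1 (0.66). For SLC18A1 they were ADM5 (0.65), BTG2 (0.65) and ZSWIM3 (0.62), and for MAOA they were GLCCI1 (0.71) and BASP1 (0.69). These are the highest of many values and describe these arrays, which share their processing.

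The other genes of the pathway were read from fixed lists. Of 12 genes of the cofactor of TH and of amine breakdown, 11 had a probe. Between TN and HS pigs 0 of 11 passed (1 at an unadjusted p under 0.05), against 0.911% and 13.5% of all probes. SPR, the last enzyme of cofactor synthesis, was nearest at 0.09 (adjusted p = 0.146 from limma). Between Large White and Creole pigs, where 11.5% of all probes passed, 2 of 11 rose and 0 fell: MAOB, the other monoamine oxidase, by 0.27 (SE 0.063, adjusted p = 0.0030 from limma), and RNLS, renalase, by 0.25 (adjusted p = 0.0023 from limma). MAOB did not pass without the arrays of slide 3 (0.25, adjusted p = 0.0513 from limma), nor RNLS without those of slide 2 (0.20, adjusted p = 0.0594) or with the chromaffin markers in the fit (0.22, adjusted p = 0.140). MAOA and MAOB thus moved in opposite directions between the breeds. ALDH2, an aldehyde dehydrogenase, differed by 0.22 and did not pass. The median of the 11 genes was 0.06, against 0 over all probes.

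Of 8 genes of granules and transport, 5 had a probe, and 1 rose in Large White against Creole pigs (11.5% of all probes passed): CYB561, the granule cytochrome that supplies electrons to DBH, by 0.17 (adjusted p = 0.0461 from limma). Its call was lost in 30 of 53 alternatives, with differences between 0.13 and 0.20. The 4 subunits and accessory proteins of the proton pump that energises granule uptake (ATP6V0D1, ATP6V1B2, ATP6AP1 and ATP6AP2) differed by -0.04 to 0.10 and did not pass. In HS against TN pigs 0 of 5 passed (2 at an unadjusted p under 0.05), against 0.911% and 13.5% of all probes. Between these pigs CYB561 differed by -0.11 (adjusted p = 0.239 from limma).

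Of 11 genes of receptors and secretion control, 6 had a probe, and 2 passed between Large White and Creole pigs, against 11.5% of all probes. CHRNA3, a subunit of the nicotinic receptor through which splanchnic nerves trigger release, rose in Large White pigs by 0.32 (adjusted p = 0.0207 from limma), as did PENK, proenkephalin, which also stands among the chromaffin markers. CHRNA3 lost its call in 6 alternatives, among them slide 1, 2, 3 or 5 left out, and changed sign to -0.11 with the chromaffin markers in the fit. In HS against TN pigs 0 of 6 passed (1 at an unadjusted p under 0.05), against 0.911% and 13.5% of all probes. CACNA1D, a calcium channel subunit, differed by 0.27 in HS pigs (adjusted p = 0.0998 from limma).

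Of 13 transcription factors known to act on these genes, 9 had a probe. In HS pigs 1 of 9 passed, against 0.911% of all probes (0.501% lower in HS). At an unadjusted p under 0.05 from limma there were 3, against 13.5% of all probes. The 1 that passed, EGR1, an immediate-early factor known to bind the PNMT promoter, fell by 0.61 (SE 0.16, adjusted p = 0.0498 from limma). It was lower in HS in all 53 alternatives (by -0.75 to -0.52) and lost its call in 38 of them, with adjusted p from 0.0293 to 0.258, among them slide 1, 2, 3 or 4 left out. NR3C1, the glucocorticoid receptor, differed by -0.01 and SP1 by 0.01. In Large White against Creole pigs 2 of 9 rose, against 11.5% of all probes that passed, HAND1 by 0.68 (adjusted p = 5.7e-04 from limma) and GATA3, a factor of sympathoadrenal cells, by 0.59 (adjusted p = 0.0047 from limma), and EGR1 differed by 0.06. With the chromaffin markers in the fit HAND1 differed by 0.10 (adjusted p = 0.788 from limma) and GATA3 by -0.07 (adjusted p = 0.845), and neither passed. With the cortex markers in the fit GATA3 did not pass (0.53, adjusted p = 0.103 from limma). In F1 pigs against the mean of both parents 0 genes of these 4 lists passed (1, 2, 1 and 0 at an unadjusted p under 0.05 from limma, in the order of the lists, which 11.2% of all probes met).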

How the data were processed

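The arrays were scanned and read by the authors with Agilent Feature Extraction 10.10.1.1, and each deposited scanner file gives 1 intensity per spot before any scaling between arrays. The table the authors deposited covers 45348 probes on the log2 scale, the median pixel intensity after quantile normalization, with column medians of 8.52 to 8.53 and 93 missing values. Each of its 36 columns ranked as its own scanner file did. It was the source of all main values, and 0 columns of other samples were present. The filter the authors applied to probes is not given in the sources used here.

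Probes were named from the deposited gene names (18708), RefSeq transcripts of Sscrofa11.1 (2537) and older symbols (166), and 23937 had no name. Flags for background and saturation came from the scanner files. The number of arrays limits the precision.

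Limma 3.58.1 (R 4.3.3; lmFit and eBayes) was fitted over all probes of the table with temperature and breed, or with the 6 groups for responses within a breed and the interaction. P-values were adjusted by Benjamini-Hochberg with a threshold of 0.05. Marker lists and pathway lists were read by the brightest probe of each gene. Correlations used 100000 permutations within groups and Python. The genes named are the members, the genes of the lists that passed with up to 6 others per list, and the 3 genes most like each member. Of the genes this rule selects, 2 are not reported here. The members and the lists were chosen with earlier results of these data known.

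On data simulated with the probes' own means and spreads (45348 probes, 200 changed), for HS against TN 76% of changes of 0.35, 90% of 0.5 and 100% of 1 on the log2 scale were recovered, with 12 false calls. For Large White against Creole these were 61%, 85% and 97%, with 5 false calls. These shares are over the changed probes as a whole and were not computed for the member genes. For HS against TN the median half-width of the interval was 0.119 over all probes. The intervals of PNMT (-0.55 to -0.14), DBH (-0.43 to 0.00), DDC (-0.38 to 0.07) and SLC18A1 (-0.42 to 0.01) were wider. The shares therefore do not give the recovery for these genes, and PNMT, at -0.35, did not pass. Litters, which the labels do not identify, could not enter the simulation.

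The alternatives were scanner values with quantile normalization (with or without a filter), normexp (offset 50), processed signals scaled to their 75th percentile, probes above background on all arrays, the slide as a fixed or random block, single slides or pigs left out, no other factor in the fit, array weights, another variance prior, and a marker mean as covariate. The random block was estimated on every 10th probe. The labels do not hold the pen, slaughter day or parents of a pig, so none entered a fit. A planned search for motifs in promoters was not run.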

Additional observations from a re-analysis of the deposited data

Results flagged for a closer look

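Samples far from the rest of their group were looked for in 66 sets of 6 pigs (11 probes, 6 groups), and 6 were found where chance alone gives about 1 in 20, or 3.3. In Large White HS replicate 5, DBH was 9.51 against 10.38 to 10.60 in the other 5 pigs, and DDC was 13.97 against 14.88 to 15.31. The mean of the 7 chromaffin markers in this pig was 12.55, the lowest of 36 pigs, and its cortex mean was 15.99. In F1 TN replicate 1, MAOA was 13.06 by probe 1 (others 12.30 to 12.43), 10.89 by probe 2 (10.32 to 10.46), 10.88 by probe 3 (10.15 to 10.36) and 11.89 by probe 4 (11.23 to 11.43). The mean of the neuron markers in this pig was 12.50 and that of the Schwann and sustentacular markers 10.94, each the highest of 36 pigs. The part of these markers in the values was not tested. The probes of a gene share their pigs, so these 6 are readings of 2 pigs.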

How the results depend on the processing

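The alternatives from scanner values also changed the probes tested (45943, or 60305 without a filter, against 45348). MAOA by its brightest probe, between Large White and Creole pigs, passed in all alternatives. For HS against TN, the number of member probes that passed was 0 (0.911% of all probes passed), and became 1 with the slide as a fixed block (1.98%), 2 with it as a random block (1.83%) and 2 without slide 5 (0.752%), and with single pigs left out it lay between 0 and 2 (0.505% to 1.81%). It was 2 without Large White HS replicate 2 (0.807%), without Creole TN replicate 6 (0.878%) or without Creole HS replicate 6 (1.60%). For Large White against Creole it was 7 (11.5%), 4 without slide 3 (5.67%), and 5 to 10 with single pigs left out (9.93% to 11.8%). For the F test of breeds it was 6, and 5 to 9 with single pigs left out (9.17% to 10.8%).

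With the chromaffin marker mean as covariate, DDC between HS and TN reversed to 0.10, and between Large White and Creole pigs DDC reversed to -0.45, DBH to -0.36, PNMT to -0.10, CHRNA3 to -0.11, GATA3 to -0.07 and, as parts of that mean, CHGA to -0.02 and SCG5 to -0.32. For F1 against the mean of both parents, where no gene passed, DBH reversed to 0.00 with the slide as a fixed block and to 0.10 without slide 2, and lay between -0.05 and 0.06 with single pigs left out, while PNMT was 0.00 without slide 3, 4 or 5. Counts over all probes for HS against TN ran from 34 to 899 over the settings that keep all pigs or leave out a slide, against 413, for Large White against Creole from 1632 to 6316, against 5207, for the F test of breeds from 1807 to 6160, against 4821, and for F1 against the mean of both parents from 14 to 316, against 188. For HS against TN within a breed, counts over all probes ran from 0 to 6 in Creole (against 0), 0 to 238 in F1 (against 0) and 0 to 11 in Large White pigs (against 5). In F1 pigs the count was 238 without slide 5, 49 with the slide as a random block and 46 with array weights, and with single pigs left out it ran from 0 to 150, the highest being 142 without F1 TN replicate 5 and 150 without F1 TN replicate 6. The pigs without which PNMT did not pass between Large White and Creole were Large White TN replicates 2, 3 and 4, Large White HS replicates 1 and 2, Creole TN replicates 4, 5 and 6 and Creole HS replicates 2, 4 and 5. The cause was not tested. No paired analysis was possible, because TN and HS pigs were different animals and the labels do not identify littermates. The replicate numbers used here were assigned in the order of the arrays within each group and are not in the labels.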
